A study of Caenorhabditis elegans with 18 samples.

Results

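The comparison described here set the 6 libraries of the met-2 mutant against the 6 of the wild type N2, 12 of the 18 libraries of the series, at the scale of single 500-bp windows and of runs of adjacent windows. The libraries were taken by their strain label, and the other 6 come from a set-25 mutant. Each strain had 3 LEM-2 chromatin immunoprecipitation (IP) libraries and 3 input libraries, described by the labels as independent biological replicates. N2 (Bristol) is the wild type and met-2(n4256) III is a mutant of the met-2 gene on chromosome III. Both strains were grown at 20 degrees after L1 synchronization and collected as early embryos, before the bean stage, so a library is an average over whole embryos and all their cells. Both received the same anti-LEM-2 antibody, and no transgene is named for either.

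LEM-2 sits in the inner membrane of the nuclear envelope, and DNA recovered with it marks the chromatin that touches the envelope. In C. elegans the distal arms of the autosomes are rich in repeats and in methylated lysine 9 of histone H3 and tend to be peripheral, whereas the gene-dense centres tend to lie in the interior. MET-2, the worm relative of SETDB1, is a methyltransferase that deposits mono- and dimethylation on that lysine.

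Enrichment below is the log2 IP value of a window minus the log2 input value of the column with the same letter, so that 0 is the input level and 1 is a doubling. The columns carry letters from a to c and no replicate number. The letter was used to match an IP with an input and for no other pairing, and border steps are also given with the mean of each strain's inputs. The recovered depth of the 12 libraries was 8.73 to 59.52 M reads, with a median of 40 to 286 reads per window. Library b of the met-2 IPs was the shallowest, so its single windows are the least precise. Counts of reads gave the labels a check: on chromosome III, from 8376501 to 8377500 as in the deposited table, the 3 met-2 inputs held 3, 0 and 1 reads and the 3 N2 inputs held 435, 358 and 425. Reads from that interval were thus all but absent from the inputs of one strain and present in those of the other. The N2 libraries of letter a stood apart in a similar way. On chromosome V from 1646001 to 1647500, N2 input a held 0 reads and N2 IP a held 4, where the other 5 inputs held 471 to 660 and the IPs of N2 b and c held 506 and 505. N2 input a was also low over a further 220 kb of chromosome V, from 2340001 to 2560000, at -1.23 on the log2 scale relative to its median window against 0.62 to 0.91 in the other 5. These intervals contributed no called window. Whether N2 a comes from another stock of N2 was not tested, and N2 a had the widest profile of the 3 N2 libraries.

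Along the chromosomes, the N2 profile of high arms and low centres was flattened in every met-2 library. Over 20 equal slices of each chromosome, mean N2 enrichment ran from -1.51 to 1.0 on the log2 scale, and mean met-2 enrichment ran from -0.70 to 0.73. The distance between the highest and lowest autosomal slice was 2.51, 1.77 and 1.80 in N2 a, b and c. It was 0.68, 0.92 and 1.43 in met-2 a, b and c, smaller in each met-2 library than in each N2 library. The 3 met-2 libraries lay above all 3 N2 libraries in 66 of the 120 slices (55.0%) and under all of them in 39 (32.5%), and they overlapped in the other 15.

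**Figure D1:**
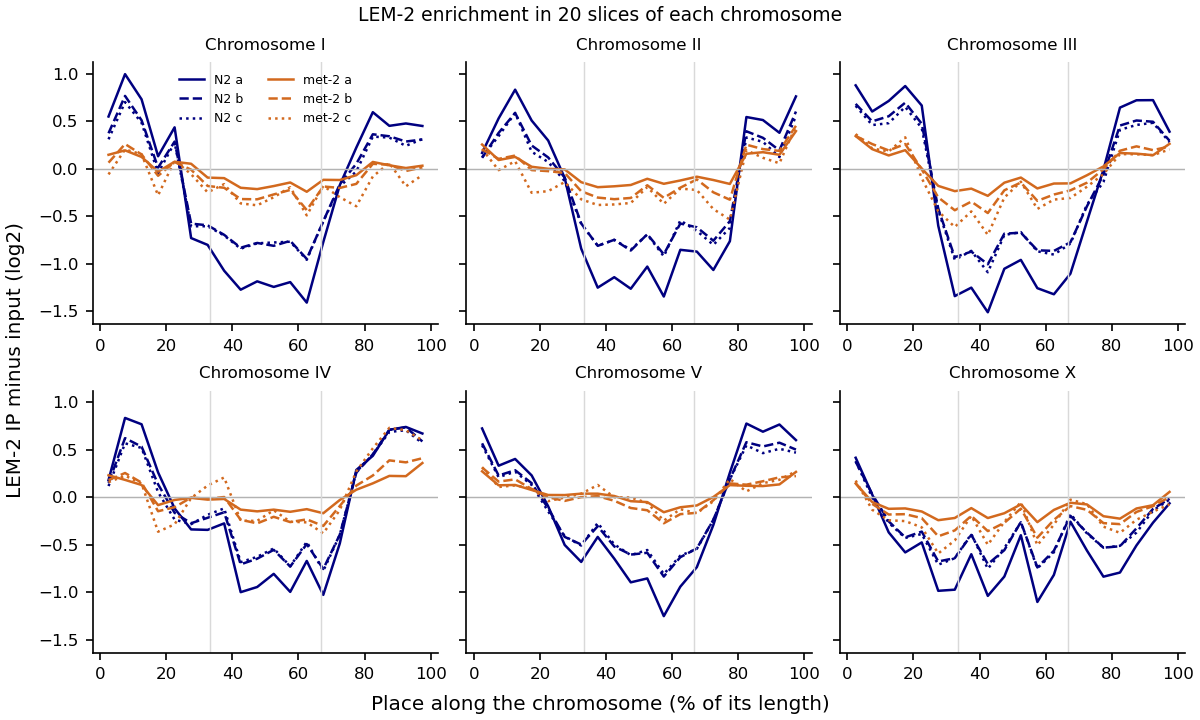
Mean LEM-2 IP minus input (log2) in 20 equal slices of each chromosome, plotted against place along the chromosome in percent of its length. Each line is 1 library (N2 blue, met-2 orange, letters a to c as solid, dashed and dotted lines) and the thin vertical lines mark where the centre meets the arms. The N2 lines range from -1.51 to 1.0, whereas the met-2 lines stay between -0.70 and 0.73.

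Grouping windows by their distance from the nearest autosome end, in bands of 5% of chromosome length that were chosen after the data were seen, placed the turn between loss and gain. At 10 to 15% from the end, the N2 libraries averaged 0.65, 0.49 and 0.45 and the met-2 libraries 0.14, 0.19 and 0.19. The strains did not overlap there, and met-2 was lower by 0.36 on the log2 scale. At 20 to 25% the libraries overlapped, with N2 at 0.11, 0.04 and 0.00 and met-2 at 0.01, -0.02 and -0.10. One band further in, at 25 to 30%, N2 stood at -0.47, -0.37 and -0.38 and met-2 at -0.04, -0.10 and -0.16, so that met-2 was now the higher strain by 0.31. The difference was widest at 40 to 45%, where N2 read -1.14, -0.78 and -0.78 and met-2 read -0.15, -0.27 and -0.30, a gain of 0.66. Between the highest and the lowest band, met-2 thus ran from 0.25 ± 0.01 to -0.24 ± 0.08 (SD, n = 3) and N2 from 0.53 ± 0.10 to -0.90 ± 0.21. The outermost band, the last 5% of each autosome end, was the highest of met-2 but not of N2, which stood at 0.46 ± 0.08 there.

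Every library was scaled to the same total, so these differences are relative. The median window of the genome was higher in met-2 by 0.18. When the IP minus input values of each letter were centred on their own median, the difference at 10 to 15% became -0.55 and that at 40 to 45% became 0.47. The directions were as before. The turn stayed between the same bands, since centred values were -0.28 at 20 to 25% and 0.12 at 25 to 30%.

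On X, which differs from the autosomes in having most of its peripheral contact at the left end, the profile was shallower in both strains. In the leftmost slice of X, N2 libraries averaged 0.42, 0.37 and 0.38 and met-2 libraries 0.15, 0.15 and 0.18, without overlap. In the rightmost slice they averaged -0.06, -0.01 and -0.02 in N2 and 0.06, 0.00 and -0.07 in met-2, with overlap. In the band at 40 to 45% N2 stood at -1.07, -0.72 and -0.75 and met-2 at -0.24, -0.39 and -0.50. The strains did not overlap in that band. At 10 to 15% the difference was 0.17 and turned to -0.02 under median-centring, so no direction is given for that part of X.

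Single windows were tested with limma across the 200497 windows kept, and 26390 passed an adjusted p of 0.05 (13.2%). Of these, 16331 were higher in met-2 (8.15%) and 10059 were lower (5.02%), so that 61.9% of the calls were gains. Centring each IP and input column on its median turned this to 5739 higher and 23062 lower, with 19.9% gains. The median standard error of a window's difference was 0.27 on the log2 scale. The lowest adjusted p was 0.012, so the calls lie close to the threshold: limma called 0 windows at an adjusted p of 0.01, while 44438 higher and 24186 lower had an unadjusted p under 0.05. Without the IP and input of met-2 a, or without those of met-2 b, limma made 0 calls in either direction at 0.05. In those fits 30087 higher and 19018 lower windows, and 34974 higher and 19467 lower windows, had an unadjusted p under 0.05.

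Called windows were sorted sharply by place. Each chromosome was cut into 3 equal parts, the outer ones called arms and the middle one the centre. In the autosomal centres, 11670 of 55032 windows rose (21.2%) and 24 fell (0.044%). In the autosomal arms, 9596 of 110036 windows fell (8.72%) and 3509 rose (3.19%). The gains in the arms were at their inner edge: 88.8% of them lay between 25% of chromosome length and the edge of the centre, and 97.7% of the arm losses lay nearer to the end. X had fewer calls than the autosomes of either kind, with 540 windows that rose and 437 that fell of 23626 in its arms, and 612 that rose and 2 that fell of 11803 in its centre. Of the 437 falls, 409 were in its left arm.

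The arms were unequal. The share of windows that fell was 16.2% in the left arm of III, 14.5% in the right arm of I, 13.6% in the left arm of I, 11.7% in the right arm of V and 11% in the left arm of II. It was 1.88% in the right arm of IV, 2.09% in the left arm of V and 3.56% in the right arm of II. On the right arm of IV the met-2 libraries were split. In its slice from 14869501 to 15744500, N2 was at 0.71, 0.71 and 0.69 and met-2 at 0.22, 0.39 and 0.73. The highest share of any slice was on the left arm of I from 753501 to 1507000, where 35.2% of windows fell and the mean difference was -0.60. Next came the slice of the left arm of II from 1528001 to 2292000, with 35% and -0.55, and the slice of the right arm of V from 16735501 to 17781500, with 30.1% and -0.53. Centres were more alike, with 25.8% of windows higher on I, 23.3% on II, 26.6% on III and 19.7% on V, and 13% on IV. Whether the arms or centres differ from each other was not tested.

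Changed windows formed short runs. Of 10567 runs that rose, 68.5% were a single window, as were 63.1% of the 5585 runs that fell. Runs of 4 or more windows, called changed domains here, numbered 562 for gains, covering 1.43 Mb, and 525 for losses, covering 1.51 Mb. They held 17.5% of the windows that rose and 30.0% of those that fell. Their median length was 2.0 kb for gains and 2.5 kb for losses, and 20 gains and 38 losses reached 5 kb. Of the changed domains, 466 gains and 1 loss were in autosomal centres, and 92 gains and 503 losses were in autosomal arms.

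The changed domains were longer when windows were smoothed first. When limma was run on running means over 5 windows (2.5 kb), 98216 windows passed (49.0%), with 66207 higher (33.0%) and 32009 lower (16.0%). The share of higher windows was 74.0% in autosomal centres and 14.8% in autosomal arms, and the share of lower windows was 0.26% and 27.6%. Gains then formed 3457 domains with a longest run of 265 kb, and losses formed 1910 with a longest run of 106 kb. Domains of 50 kb or more numbered 82 and 13, and the median domain was 4.5 kb in both directions. Neighbouring running means share windows, which lengthens runs by itself, and the part of the lower noise in the longer runs was not tested. When any one library was left out, between 37937 and 65795 windows were higher and between 22470 and 33802 were lower. Median-centring turned this split too, to 30891 higher and 52714 lower.

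**Figure D2:**
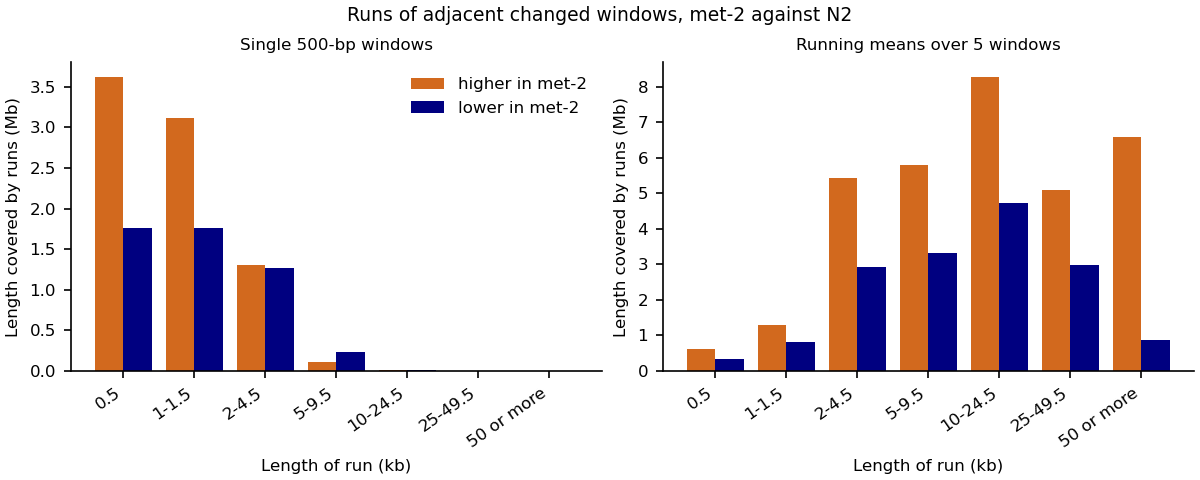
Length of genome (Mb) covered by runs of adjacent changed windows, grouped by the length of the run (kb), for single 500-bp windows and for running means over 5 windows. Orange bars are runs higher in met-2 and blue bars runs lower. With single windows the longest runs were 11.5 kb and 10 kb, and with running means 82 gains and 13 losses reached 50 kb.

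The longest run of single windows that rose was 11.5 kb in the centre of chromosome III, from 8756501 to 8768000 in the coordinates of the deposited table. Its mean enrichment was -1.5, -1.12 and -1.38 in N2 a, b and c and -0.19, -0.22 and -0.18 in met-2. All 3 met-2 libraries were near the input level, and all 3 N2 libraries were far below it. The next were on III from 4433001 to 4441500 and on V from 12231501 to 12240000, both 8.5 kb long, with differences of 1.04 and 1.2. The largest mean gain was on III from 5135001 to 5137000, where N2 read -1.86, -1.10 and -1.72 and met-2 read -0.01, -0.18 and -0.08. That 2.0-kb domain lay beside a longer one, from 5128501 to 5134000, in which met-2 was higher by 1.18. Over the 17 gains named by length or size, the N2 mean was between -1.88 and -0.92 and the met-2 mean between -0.51 and 0.17. In these 17 gains, chosen for length or size, met-2 thus ended at or below 0.17, and the lowest met-2 means, at -0.51 and -0.49, were still well under the input level.

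The longest run that fell was at the left end of X, 10 kb from 114001 to 124000, with N2 at 1.34, 1.10 and 1.03 and met-2 at 0.30, 0.24 and 0.22. A run of 9.5 kb followed on III from 2255501 to 2265000, with N2 at 1.36, 1.42 and 1.26 and met-2 at 0.17, 0.37 and 0.63. On the right arm of I, from 10959001 to 10967000, N2 read 1.2, 1.1 and 1.1 and met-2 read -0.08, -0.11 and 0.20, so that LEM-2 enrichment was lost down to the input level over 8.0 kb. The longest run of V was at 17001001 to 17006500, where N2 stood at 1.25, 1.01 and 1.12 and met-2 at 0.21, 0.15 and 0.25. The largest mean losses, of -1.25 to -1.2, were domains of 2.0 to 3.0 kb on I, II and IV. In 1 of them, on II from 1922001 to 1924000, N2 read 0.80, 0.50 and 0.98 and met-2 read -0.36, -0.70 and -0.32, below the input level. The strains did not overlap in any of the 33 regions named by length or size, which the way of naming them made likely.

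Runs of running means were longer. The run named on the right arm of I lay in a loss of 70 kb, from 10951001 to 11021000, that averaged 0.95, 0.84 and 0.78 in N2 and -0.08, -0.02 and 0.12 in met-2. The 8.5-kb gain on V lay in a gain of 170.5 kb, from 12189501 to 12360000, with N2 at -1.47, -0.99 and -0.99 and met-2 at -0.18, -0.26 and -0.29. These blocks extend beyond the 2 named runs on both sides, in the direction that the rule for a run requires. Their means include the named runs, and the flanks were not measured alone. The longest loss of all was 106 kb on the left arm of III, from 1303001 to 1409000, with N2 at 1.37, 1.22 and 1.24 and met-2 at 0.32, 0.52 and 0.75. Its windows were all called under median-centring as well, but this lowers every difference and so could hardly undo a loss. The longest gain of all was 265 kb in the centre of V, from 9462001 to 9727000, with N2 at -1.17, -0.75 and -0.79 and met-2 at -0.04, -0.14 and -0.06, and 82.3% of its windows stayed called under median-centring.

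The 24 windows that fell in autosomal centres were not scattered. One was on II and the other 23 were on IV, in 3 clusters picked out after their values were seen. From 8552501 to 8579000, 14 of 53 windows fell, and the 26.5-kb interval averaged 0.36, 0.43 and 0.28 in N2 and -0.17, -0.23 and 0.08 in met-2. From 10964501 to 10993500, 6 of 58 windows fell, with N2 at 0.16, 0.23 and 0.27 and met-2 at -0.14, -0.16 and -0.24. From 11058501 to 11061000, 3 of 5 windows fell, with N2 at 0.64, 0.50 and 0.54 and met-2 at -0.11, 0.03 and -0.17. In all 3 clusters N2 was above the input level, unlike most of the centre around them.

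To describe domains of the wild type, N2 LEM-2 domains were defined as runs where the running mean of N2 enrichment over 11 windows (5.5 kb) was above 0, and borders as their ends with at least 10 kb inside and 10 kb outside. Each N2 library was measured at borders set by the other N2 libraries, and each met-2 library at all 3 sets. There were 391 to 418 autosomal borders and 64 to 72 borders on X in a set. The step is the mean of the 20 windows inside minus that of the 20 windows outside.

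The step at autosomal borders was 0.70, 0.71 and 0.74 in N2 a, b and c and 0.17, 0.28 and 0.68 in met-2 a, b and c. The met-2 values were all below the N2 values, but met-2 a and b were far below and met-2 c was close to N2. The means were 0.72 ± 0.02 and 0.38 ± 0.27 (SD, n = 3 each), a difference of -0.34 with an exact two-sided permutation p of 0.1, the smallest that 3 against 3 libraries allow, and 0.12 after Benjamini-Hochberg adjustment over 7 comparisons. Without met-2 c the means were 0.72 and 0.23, a difference of -0.49. The strains overlapped when domains were set at 0.25 in place of 0, when the step was taken over 10 windows, and without N2 a or N2 c, with exact permutation p between 0.3 and 0.4.

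The input itself had a step, which was highest in column a and lowest in column c of both strains. At autosomal borders the IP value alone had a step of 0.87, 0.79 and 0.74 in N2 a, b and c and of 0.40, 0.47 and 0.71 in met-2. The input alone had a step of 0.16, 0.08 and -0.00 in N2 and of 0.24, 0.18 and 0.02 in met-2. Met-2 c therefore had both the highest IP step and the lowest input step of its strain. With the mean of each strain's inputs in place of the input of the same letter, the met-2 steps were 0.26, 0.32 and 0.56. The part of the inputs in the difference between met-2 libraries was not tested.

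On X the step was 0.46, 0.45 and 0.42 in N2 and 0.10, 0.20 and 0.45 in met-2. The strains overlapped, since met-2 c lay within the N2 range, and the difference of -0.20 had an exact permutation p of 0.2. By place, borders in autosomal arms had a mean step of 0.75 in N2 and 0.39 in met-2, and the 42 to 45 borders in autosomal centres had 0.42 and 0.25.

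**Figure D3:**
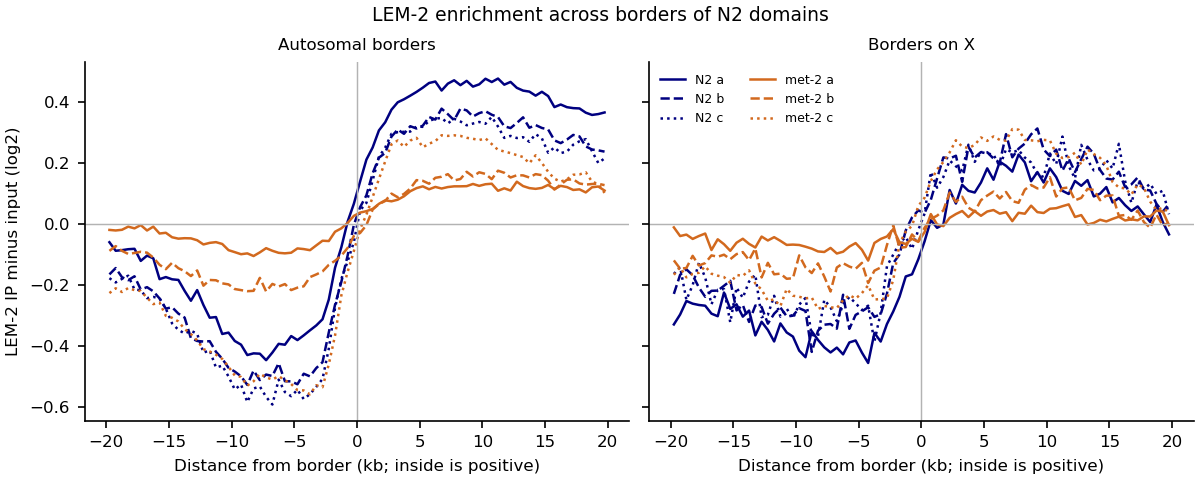
Mean LEM-2 IP minus input (log2) against distance from the border of N2 domains (kb, inside positive), for autosomes and for X. Each line is 1 library measured at borders set by other N2 libraries, with N2 in blue and met-2 in orange. The lines of met-2 a and b are nearly flat, with autosomal steps of 0.17 and 0.28, whereas met-2 c, at 0.68, runs near the N2 lines, at 0.70 to 0.74.

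At borders set in N2, the place of the mean autosomal rise differed by less than 1 kb between libraries. No border was located in met-2 for this, and the crossing nearest to the N2 border was taken. A place near that border was thus largely built in, and it says little for the nearly flat profiles of met-2 a and b. Borders called on the averaged letters of each strain numbered 479 in N2 and 776 in met-2, with 41 and 171 in autosomal centres. The profile reached the middle of its rise at -0.57, -0.58 and -0.66 kb in N2 and at -0.49, 0.18 and -0.44 kb in met-2, so that all 3 met-2 values lay inward of the N2 values. The distance over which the middle part of the rise (from 25% to 75% of its height) took place was 3.09, 2.93 and 2.93 kb in N2 and 4.03, 3.46 and 2.73 kb in met-2, and the met-2 values lay on both sides of the N2 values. On X, with fewer borders, the middle of the rise was between -1.26 and -0.25 kb in N2 and between -0.69 and 0.17 kb in met-2, and the widths between 3.17 and 3.73 kb and between 1.74 and 4.30 kb. Since domains were set with a running mean of 5.5 kb, widths below that are blurred by the rule.

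Single borders were described at the 479 found with all 3 N2 letters, which uses the N2 libraries that set them. This favours counts of loss in met-2. The mean autosomal step of N2 was 0.74 at such borders and 0.72 at borders set by other N2 libraries. The met-2 mean was below the N2 mean at 473 borders. At 179 borders (37.4%) the highest met-2 step was lower than the lowest N2 step, and the reverse held at 0 borders (0.0%). By library, met-2 a was below the N2 mean at 99.4% of borders, met-2 b at 97.3% and met-2 c at 59.1%. The largest loss was at 13073501 on III, where the step was 2.16, 1.51 and 1.42 in N2 and 0.29, 0.42 and 1.43 in met-2. At 20423501 on V, by contrast, all 3 met-2 libraries were low, at 0.14, -0.07 and 0.38 against 1.04, 0.80 and 1.10 in N2. At the other end, the step at 3556001 on IV was 0.56, 0.49 and 0.64 in N2 and 0.17, 0.68 and 0.87 in met-2, with strain means that differed by 0.01.

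Within and beyond domains, the strains were separated more clearly than at the borders. In autosomal arms, the difference between windows inside and outside N2 domains was 1.31, 1.11 and 1.13 in N2 and 0.27, 0.44 and 0.72 in met-2, so that met-2 retained 40.6% of it. In autosomal centres it was 1.15, 0.92 and 0.97 in N2 and 0.23, 0.41 and 0.71 in met-2, or 44.4%. The differences between strains were -0.70 and -0.56, each without overlap, at an exact permutation p of 0.1 (0.12 adjusted over the 7 comparisons). They were without overlap in all 14 settings, which include the one reported. Leaving out a met-2 letter left the other values as they were, so those settings could not bring overlap.

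The direction of change followed both place and domain. Inside arm domains, enrichment was 0.72, 0.56 and 0.53 in N2 and 0.18, 0.24 and 0.31 in met-2. Outside domains in the arms it was -0.59, -0.55 and -0.60 in N2 and -0.09, -0.21 and -0.42 in met-2. So within the arms met-2 was lower in domains, by 0.36, and higher between them, by 0.34. Outside domains in the centres, the most depleted class, it was -1.08, -0.73 and -0.73 in N2 and -0.14, -0.25 and -0.27 in met-2, a gain of 0.63. The few windows of centre domains (2785 to 3696) were at 0.07, 0.19 and 0.24 in N2 and at 0.09, 0.16 and 0.45 in met-2, and the strains overlapped. Median-centring shifts all 4 differences by -0.19, which leaves arm domains at -0.55, the arms between domains at 0.15 and the centres between domains at 0.44, and turns centre domains from 0.06 to -0.13.

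**Figure D4:**
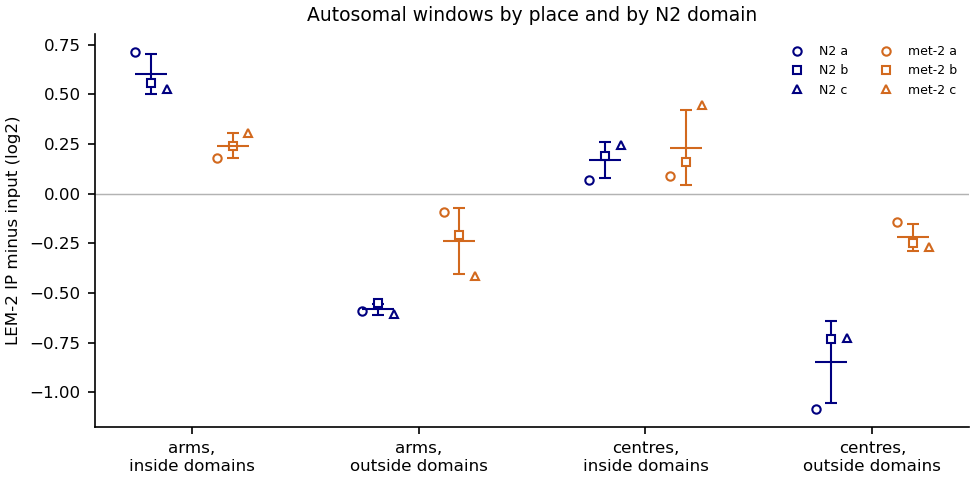
LEM-2 IP minus input (log2) of autosomal windows grouped by place (arms or centres) and by whether they lie in an N2 domain. Each symbol is 1 library, horizontal lines are means and bars are 1 SD (n = 3). Inside arm domains N2 is at 0.53 to 0.72 and met-2 at 0.18 to 0.31, and outside domains in the centres N2 is at -1.08 to -0.73 and met-2 at -0.27 to -0.14.

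Arms and centres differed in N2 even when windows of the same class were compared. In met-2 a and b they hardly did, and in met-2 c the arms were lower than the centres. Outside domains, arm minus centre was 0.49, 0.18 and 0.12 in N2 and 0.05, 0.04 and -0.15 in met-2. Inside domains, it was 0.65, 0.37 and 0.28 in N2 and 0.09, 0.08 and -0.14 in met-2. The met-2 means were -0.02 ± 0.11 and 0.01 ± 0.13 (SD, n = 3), below the N2 means by 0.28 and 0.42. Neither comparison overlapped in any of the 14 settings, which include this one, and each had an exact permutation p of 0.1 (0.12 adjusted). Again, leaving out a met-2 letter could not bring overlap. With the IP and input of any 1 letter of a strain left out, the smallest exact permutation p is 0.2, and both measures stood at it.

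Longer N2 domains were more enriched, and the log2 difference between strains was wider in them, while the share of the N2 mean kept by met-2 did not fall steadily. Domains of 10 to 20 kb averaged 0.28 ± 0.08 in N2 and 0.11 ± 0.05 in met-2, those of 20 to 50 kb 0.44 ± 0.10 and 0.20 ± 0.06, and those of 50 to 100 kb 0.59 ± 0.13 and 0.24 ± 0.06 (SD, n = 3 each). Domains of 100 kb or more were at 0.90, 0.71 and 0.66 in N2 and at 0.22, 0.31 and 0.39 in met-2. The difference between strains was -0.17, -0.24, -0.35 and -0.45 in order of length. In the outer 2.5 kb of each domain end it was -0.12, -0.14, -0.20 and -0.24. As a percentage of the N2 mean, met-2 stood at 38.7, 46.2, 40.2 and 40.8 over whole domains. For the outer 2.5 kb the percentages were 22.7, 30.1, 5.81 and 0.38. In that outer part of the domains of 100 kb or more, N2 stood at 0.42, 0.20 and 0.11 and met-2 at 0.07, 0.03 and -0.10, so met-2 was near the input level there. Another scaling would shift all of these differences together and would change the percentages.

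When domains were called in each library on its own, met-2 had a similar share of the autosomes in domains as N2, with more of it in the centres. The share was 45.0%, 43.7% and 43.0% in N2 and 49.3%, 47.0% and 46.7% in met-2, higher by 3.74 percentage points at an exact permutation p of 0.1. This difference follows the threshold: it was -12.5 points at 0.25, 22.2 points at -0.25, and -0.53 points at 0 with median-centred enrichment (exact permutation p of 0.7). In autosomal centres, 4.29%, 6.37% and 7.59% of windows were in domains of N2 a, b and c, and 19.8%, 21.1% and 30.7% in domains of met-2 a, b and c. With median-centred enrichment the centre shares were 11.3 to 14.7% in N2 and 23.2 to 36.4% in met-2, again without overlap. In arms the shares were 65.4%, 62.4% and 60.8% in N2 and 64.0%, 60.0% and 54.7% in met-2, which overlapped. They were 69.1 to 74.7% and 59.4 to 66.9% with median-centred enrichment. With all 3 letters averaged, domains of 10 kb or more numbered 693 in N2, with a median of 34.0 kb, and 1022 in met-2, with a median of 24.5 kb. In autosomal centres they numbered 42 and 178. In single libraries, domains of 10 kb or more numbered 608, 748 and 815 in N2 a, b and c and 902, 1012 and 1231 in met-2. Their medians were 37.0, 30.5 and 28.0 kb in N2 and 23.0, 21.5 and 20.5 kb in met-2. These counts and lengths were taken at the threshold of 0 only. The domains of an N2 library shared 89.7 to 95.5% of their windows with another N2 library, and 73.4 to 85.4% with a met-2 library. The domains of a met-2 library shared 76.8 to 86.2% with another met-2 library and 70.7 to 77.3% with an N2 library, and these ranges overlapped only slightly.

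The N2 pattern was also split by scale, a description chosen after the data were seen. The covariance of each library with N2 libraries other than itself was taken over autosomal windows after filtering to a range of lengths, and is given as a percentage of the N2 mean. For variation over more than 200.5 kb, met-2 a, b and c had 22.7%, 34.2% and 39.5%, and N2 libraries had 94.3 to 110%. All 3 met-2 libraries were thus low for the broadest pattern. From 50.5 to 200.5 kb, met-2 a, b and c had 27.7%, 49.7% and 83.9%, and N2 libraries had 97.7 to 103%. From 10.5 to 50.5 kb, met-2 a and b had 26.3% and 46.0% whereas met-2 c had 107%. From 2.5 to 10.5 kb they had 16.5%, 23.7% and 132%. Below that the measure was unsteady even in N2, where library a had 27.0% and b and c had 134% and 139%. The libraries of met-2 thus resembled each other in the loss of the pattern over more than 200.5 kb. From 2.5 to 200.5 kb, met-2 c was above met-2 a and b.

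**Figure D5:**
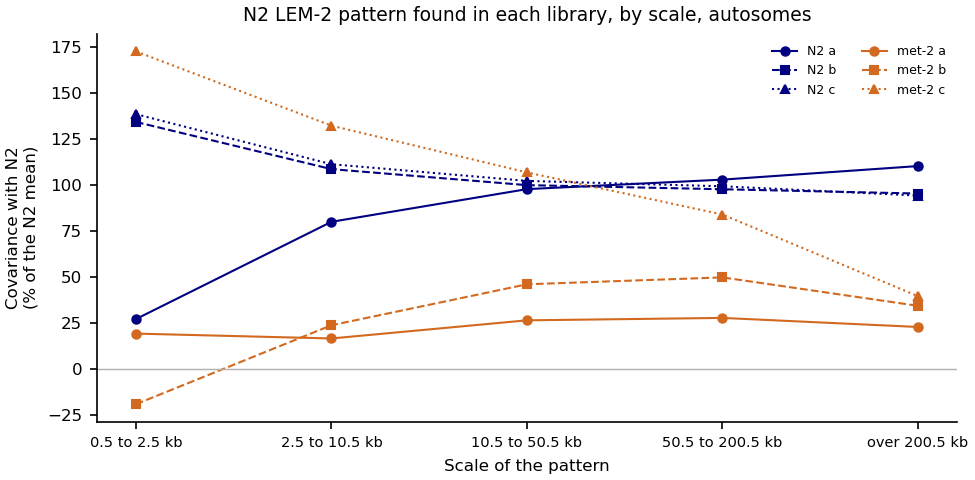
Covariance of each library with the N2 LEM-2 pattern over autosomal windows, in percent of the N2 mean, against the scale of the pattern (kb). Lines are libraries, with N2 in blue and met-2 in orange. Over 200.5 kb all met-2 libraries are at 22.7 to 39.5%, whereas from 2.5 to 10.5 kb met-2 a and b are at 16.5 and 23.7% and met-2 c is at 132%.

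The inputs differed little between strains at single windows. For IP alone, limma called 31375 windows higher and 22677 lower in met-2. For input alone it called 3 higher and 3 lower, with 3698 at an unadjusted p under 0.05. Over windows, the SD of the difference between strains was 0.54 for IP minus input, 0.50 for IP and 0.14 for input.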

How the data were processed

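The deposited table holds log2 values for 200538 windows of 500 bp. The values show that the authors deposited log2 of scaled reads plus 2, with each library scaled to 35.17 M reads. Whole reads were recovered for 100.0% of values within 0.01. The submitters' processing notes name ce10, but the windows end at other chromosome lengths, so coordinates are those of the table and no window was assigned to a gene. The aligner, counting and filters were not given in the sources used here. Equal totals make all values relative.

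A minimum of 10 mean input reads removed 41 windows. The test of each window used limma 3.58.1 (R 4.3.3; moderated variances with a mean trend, 4 groups, 12 libraries, 8 residual degrees of freedom), with Benjamini-Hochberg adjustment over all kept windows. The set-25 libraries were left out because earlier work found them unlike each other. Exact tests and domains used Python 3.11.15, numpy 2.4.6, pandas 2.3.3 and scipy 1.17.1. Scripts were tested on simulated data. Replicate pairs differed beyond sampling noise (chi-square per degree of freedom from 2.25 to 7.40). Named regions were the 10 longest runs per direction, the 5 changed domains of largest mean change per direction, the longest run of each chromosome not yet named, and the 5 borders with the largest and the smallest loss, with at most 1 per 100 kb and direction within each list of runs or domains. The comparison, its measures and its rules were chosen with earlier results of these data known. Alternatives covered scaling, filters, a count model (limma-voom on recovered reads), replicate blocks and domain rules. They also covered leaving out the IP and input of 1 letter of a strain. Median-centring acted on each IP and input column in the limma fits, and on IP minus input of each letter in all other measures.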

Additional observations from a re-analysis of the deposited data

How the results depend on the processing

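Counts of called windows and domains moved widely with the setting. The values below are higher, then lower, windows in met-2, and then higher and lower domains of 2 kb or more. Median-centred columns gave 5739 and 23062 windows and 65 and 1660 domains. All 5739 were among the gains reported (35.1% of them), and 100% of the losses were called again. Since this centring lowers every difference, it could remove gains but hardly losses. Limma-voom on recovered reads gave 28755 and 14316 windows, and 1703 and 926 domains. Running means over 5 windows gave 66207 and 32009 windows, and 3457 and 1910 domains. The same with median-centring gave 30891 and 52714 windows, and 2507 and 2468 domains. With the IP and input of one letter as a replicate block, 7255 and 6684 windows and 111 and 244 domains were called, which kept 42.4% of the gains and 61.4% of the losses. With the letter shared by both strains as the replicate block, the counts were 6940 and 7506 windows, and 117 and 312 domains. The evidence that letters pair the libraries was mixed. Deviations of the N2 and met-2 inputs correlated by letter at 0.60 for a, 0.06 for b and 0.61 for c, those of an IP with its input at -0.26 to 0.21 over 6 pairs, and those of the IPs of both strains at -0.16 to -0.04. N2 IP a and N2 input a also lack the same interval of V. Not every pair exceeded 0.1, so the block fits stand here only; the fit with the shared letter turns the balance of calls to losses. Bridging a gap of 1 window gave 1368 and 927 domains, and a minimum of 10 windows gave 20 and 38. At an adjusted p of 0.01 limma called 0 and 0 windows.

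Leaving out the IP and input of 1 letter of a strain at a time gave 0 to 18589 higher and 0 to 12277 lower windows. Domains ranged from 0 to 682 higher and 0 to 681 lower. The count was 0 without met-2 a or met-2 b, and without N2 a it was 2489 and 1909. For running means the ranges were 37937 to 65795 higher and 22470 to 33802 lower windows. Of the 33 named regions, none turned its direction under any of 14 alternatives, but this was largely fixed in advance. The strains did not overlap in any of the regions, so leaving out 1 letter of a strain could not turn one. The block fits, the fit of all 18 libraries and the fit without a read minimum left the differences as they were. All 33 lost their call without met-2 a or without met-2 b, 27 lost it without N2 a, 14 without N2 b, 1 without N2 c, 6 and 4 under the 2 block fits and 3 under median-centring. Their differences were 0.69 to 1.70 in size in these settings. The share of autosomes in domains turned to -12.5 points at a threshold of 0.25 and to -0.53 points with median-centred enrichment. The cause of the moves in called windows and in this share was not tested. Without met-2 c, limma called 18589 higher and 12277 lower windows. The 4 contrasts of inside with outside and of arm with centre were without overlap in all 14 settings, the reported one included. For them, leaving out a met-2 letter could not bring overlap. The border step differed by -0.49 to -0.23 and was without overlap in 10 of 14, and the step on X in 4 of 14. Depth limits single windows most in met-2 IP b.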
